A study of Mus musculus with 2 samples.

Results

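The genes described here encode the machinery that copies the genome in S phase. They are 43 mouse genes chosen by name, from the subunits that mark replication origins to the enzymes that join the finished strands. All 43 were found among the 20660 genes that could be named on the array from their RefSeq accession, and all 43 were well above background on both arrays. The signal of 40 of them was within 2-fold between ESAM-KO and WT. Mcm10 and Pole2 were higher in ESAM-KO by more than 2-fold, and Pold3 was lower.

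Before S phase, the origin recognition complex binds DNA and, with Cdc6 and Cdt1, loads the MCM2-7 helicase in an inactive form. In S phase, kinases and accessory factors switch this helicase on, polymerase alpha-primase starts each new strand, and polymerases delta and epsilon extend the strands while held by the sliding clamp PCNA. Erythroid progenitors divide rapidly and depend on this machinery. 5-FU is an anti-cancer drug, a product of which blocks thymidylate synthase and so deprives replication of a building block.

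WT mice and ESAM-KO mice, which carry a homozygous knockout of the endothelial cell-selective adhesion molecule in all tissues, were both labelled C57BL/6 and were 8 to 12 weeks old by the study's methods. Both groups received a single injection of 120 mg/kg of 5-FU and were sacrificed 8 days later, so that no untreated sample was compared. Bone marrow cells of 3 mice per genotype were pooled, and primitive erythroid progenitors, called pre CFU-E, were sorted. They were lineage negative, carried c-Kit, endoglin and CD150, lacked Sca1, and had little CD41 and little or no FCγRII/III. Their RNA was amplified, labelled with Cy3 and hybridised to 1 Agilent array per genotype. With 1 array each there is no replicate, so that neither SD nor p-value is given, and genotype cannot be told apart from the pool, the sort or the amplification.

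The spot intensity had a 75th percentile of 201.4 in WT and 251.1 in ESAM-KO. Every log2 ratio below is ESAM-KO over WT after each array was set to its own 75th percentile, which lowers each ratio by 0.32 compared with the raw intensities. A gene whose raw intensity was higher in ESAM-KO by just this much thus has a log2 ratio of 0. Intensities are given as deposited, before this scaling, and the intensities of different probes are not comparable with each other. The error given with a ratio is that of the scanner software and covers the spot only. It lay between 0.20 and 0.21 for all 43 genes.

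The targeted gene was a weak check of the labels. Esam read 27.4 in WT and 20.6 in ESAM-KO, close to the lowest intensities well above background of 12.6 and 13.2, with a log2 ratio of -0.73 ± 0.31 (scanner error). All 12 erythroid progenitor markers, Gata1, Klf1 and Epor among them, were well above background on both arrays, with a median log2 ratio of -0.25. Of the 12, 8 were below 0 and 4 above, beside 51.5% of all genes measured on both arrays below 0. These sides depended on the scaling, as Gata1, Klf1 and Epor were at -0.02, -0.002 and 0.22 without it. By more than 2-fold, 0 were higher and 1 was lower, Rhd at -1.49. Among the genes of the sort, Kit, Eng, Slamf1 and Itga2b were above background on both arrays, whereas Ly6a, the gene of Sca1, was so on the WT array alone. Itgam, whose product is one of the lineage antigens removed by the sort, was bright on both arrays at the brightest of its 3 probes, at 76376 and 82076. Its log2 ratio was -0.21 at that probe and -0.77 with its measured probes averaged. Transcripts of other blood cells differed between the arrays. In ESAM-KO, all 9 neutrophil markers were more than 2-fold lower, at a median log2 ratio of -3.30, and their summed scaled signal was 243.3 times the 75th percentile in WT and 35.7 times in ESAM-KO. None of the 9 was at background on either array. Of 8 B cell markers, 4 were lower by more than 2-fold, with summed scaled signals of 2.92 and 0.928, and Rag1 was at background on both arrays. Of 8 mast cell, basophil and eosinophil markers, 3 were lower and 1 was higher by more than 2-fold, with sums of 8.15 and 0.937, and Cma1, Cpa3 and Mcpt8 were at background on both arrays. Of 7 megakaryocyte markers, 2 were higher and 3 lower past 2-fold, with sums of 4.33 and 4.66 and none at background on both arrays. Of 7 macrophage markers on the array, 1 was higher and 1 lower, with sums of 34.0 and 30.2, and Mrc1 was at background on both. Of 6 T and NK cell markers on the array, 1 was lower, with sums of 9.97 and 10.7, and Cd3g, Klrd1 and Ncr1 were at background on both. Of 6 endothelial markers, 1 was higher and 1 lower, with sums of 12.3 and 10.3, and Cdh5 was at background on both. The sums of the macrophage, the T and NK cell and the endothelial lists rest mostly on 1 bright gene each, Csf1r, Nkg7 and Kdr. They hide differences of dimmer genes, such as C1qa at 1.19, Vcam1 at -2.88 and Pecam1 at -1.99. The part of all these other cell types in the ratios of the replication genes was not tested. In such a pool, fewer cells of a type or in S phase and less RNA per cell also cannot be told apart.

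Over all 43 genes, the quartiles of the ratios lay somewhat closer together than those of all measured genes, and both lay higher. The median log2 ratio was 0.05 and the middle portion, from the first to the third quartile, ran from -0.15 to 0.42. For the 12615 named genes well above background on both arrays, the median was -0.02 and the quartiles were -0.38 and 0.34. By more than 2-fold, 3 of the 43 genes, or 6.98%, differed between the arrays, beside 12.6% of all genes measured on both arrays and 15.4% of all genes that had a ratio. By direction, 2 were higher, beside 5.22% of all genes measured on both arrays and 6.99% of those with a ratio, and 1 was lower, beside 7.37% and 8.43%. For 17 of the 43 the ratio was smaller than its own scanner error.

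**Figure D1:**
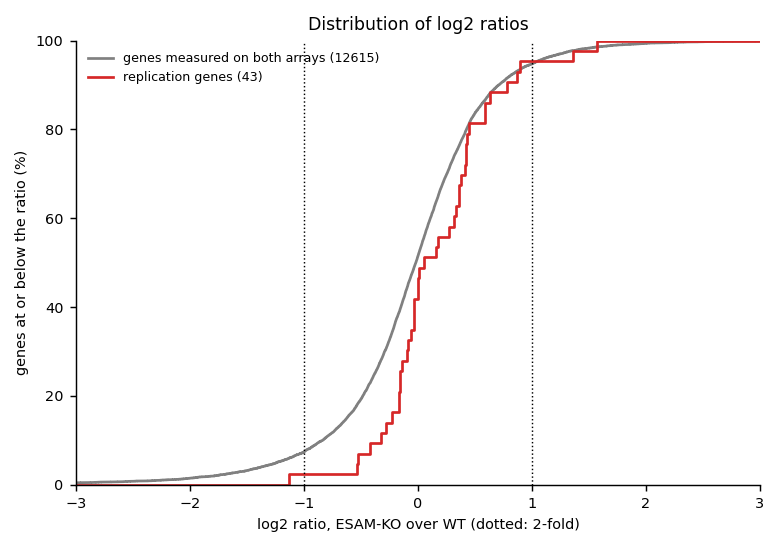
The cumulative share of genes (vertical axis, percent) at or below each log2 ratio of ESAM-KO over WT (horizontal axis), for the 43 replication genes in red and the 12615 genes measured on both arrays in grey. The red curve is steeper, with 1 gene left of the lower dotted line, which marks 2-fold, and 2 genes right of the upper one.

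The share of genes past 2-fold depends on how bright the spots are, and the replication genes had bright spots. When all measured genes were divided into quartiles of mean signal, 19 of the 43 fell in the brightest, 16 in the next, 8 in the one below it and 0 in the dimmest, where 17.9% of all genes were past 2-fold. None of the 19 was past 2-fold, beside 2.63% of all genes in that quartile. Of the 16, Mcm10 and Pold3 were past 2-fold, beside 10.8%, and of the 8, Pole2 was, beside 19.1%. The counts are small, and with 1 array per genotype they describe these arrays only.

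Which side of 0 a gene fell on depended on the scaling. With the 75th percentile, 24 genes were above 0 and 19 below, beside 51.5% of all measured genes below 0. Without scaling, 5 were below 0, beside 28.4% of all measured genes, and the median was 0.37. With scaling to the array median, 22 were below 0, beside 61.5% of all measured genes, and the median was -0.076. Such a scaling moves all genes alike, so that the median of the 43 genes stayed 0.07 above that of all measured genes under each. Differences between 2 members do not depend on it either, and the comparisons within complexes below use them. Each such distance is between different probes, mostly those of the lowest and the highest subunit. The scanner error beside it leaves out the difference between probes. Where a gene had exactly 2 probes measured on both arrays, their log2 ratios differed by a median of 0.42, and by more than 1 for 20.7% of such genes.

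**Figure D2:**
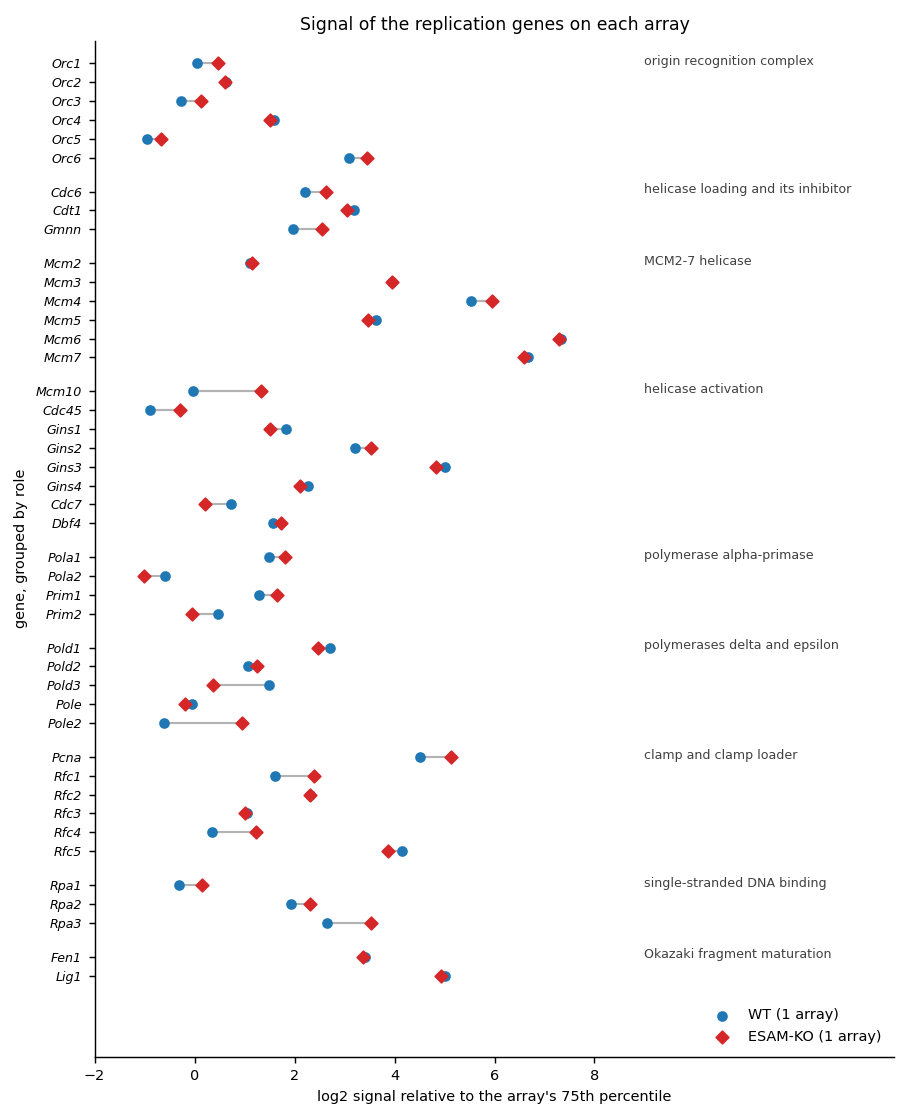
Scaled log2 signal (horizontal axis, log2 relative to the 75th percentile of the array) of each of the 43 genes, grouped by role, on the WT array (blue circles) and the ESAM-KO array (red diamonds), with 1 array each. Most pairs nearly coincide, the widest gaps are those of Pole2, Mcm10 and Pold3, and positions of different genes along the axis are not comparable.

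The origin recognition complex, which binds origins and serves as the platform for helicase loading, had all 6 subunits within 2-fold. Orc1, the ATPase subunit whose level is tied to the cell cycle, read 209 in WT against 349 in ESAM-KO, for a log2 ratio of 0.42. Orc6 read 1713 and 2741, a ratio of 0.36, and Orc2 read 309 and 385, a ratio of 0.00. The spread from the lowest subunit, Orc4 at -0.10, to the highest, Orc1, was 0.52 with a scanner error of 0.29. Orc3 had 2 probes, at 0.41 and 0.68, both above 0, and Orc5 was at 0.27. Orc4 also had 2 probes, and they disagreed. The brighter read 609.7 and 709.9, a ratio of -0.10, whereas the dimmer read 25.3 and 119, a ratio of 1.92, which is past 2-fold.

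The helicase loaders were within 2-fold as well. Cdc6, which joins the origin recognition complex to recruit the helicase, read 936 in WT against 1559 in ESAM-KO, for a log2 ratio of 0.42, and its other probe was not well above background in WT or in ESAM-KO. Cdt1, its partner in loading, read 1844 and 2066, a ratio of -0.15. Gmnn, which encodes geminin, the inhibitor of Cdt1, read 786 and 1472, a ratio of 0.59. Inhibitor and target thus lay on opposite sides of 0 at the 75th percentile scaling, 0.74 apart with a scanner error of 0.29.

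The 6 subunits of the MCM2-7 helicase, the ring that unwinds DNA ahead of the fork, were nearly level between the arrays but for one. Mcm3 read 3112 in WT and 3893 in ESAM-KO, which is a log2 ratio of 0.00 after scaling. Mcm6 read 32210.2 and 39124, a ratio of -0.04, and Mcm7 read 20438 and 24354, a ratio of -0.07. Mcm2 was at 0.05 and Mcm5 at -0.16. At this scaling these 5 subunits lay within their scanner error of 0. Mcm4 stood apart from them at 0.43, with 9250.0 in WT and 15502 in ESAM-KO, and the distance from Mcm5 to Mcm4 was 0.58 with a scanner error of 0.29.

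Helicase activation held the first gene past 2-fold. Mcm10, which is not part of the MCM2-7 ring but helps to activate it at the origin, read 196 in WT against 629 in ESAM-KO, for a log2 ratio of 1.36 ± 0.21 (scanner error), or 2.57-fold higher. It had 1 probe and 1 spot. The ratio stayed past 2-fold under each of the other scalings, background corrections and filters, between 1.15 and 1.68. The partners that ride with the helicase were closer to 0. Cdc45, which with the GINS complex turns MCM2-7 into the active helicase, read 109 and 205, a ratio of 0.59. Of the GINS subunits, Gins1 was at -0.32, Gins3 at -0.17, Gins4 at -0.16 and Gins2 at 0.32, a spread of 0.64 with a scanner error of 0.29.

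The kinase that triggers helicase activation consists of Cdc7 and its activator Dbf4. Dbf4 read 600.3 in WT against 833 in ESAM-KO, for a log2 ratio of 0.15. The 2 probes of Cdc7 gave opposite answers. The brighter read 335 and 288, a ratio of -0.54, and the dimmer 78.1 and 277, a ratio of 1.51. No direction can be given for Cdc7 from these arrays.

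**Figure D3:**
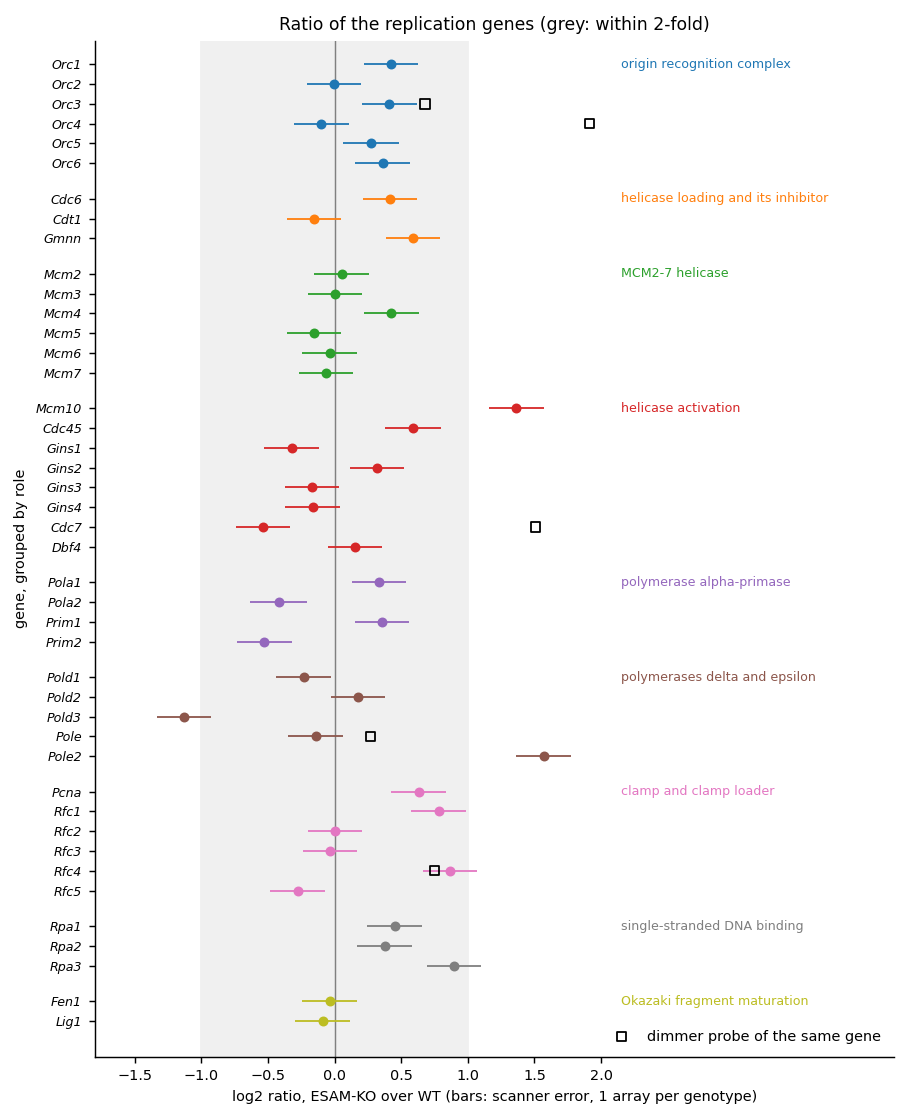
Log2 ratio of ESAM-KO over WT (horizontal axis) for each of the 43 genes, grouped and coloured by role, with the scanner error as bars, the range within 2-fold in grey, and open squares for the dimmer probes of 5 genes. Mcm10 and Pole2 lie right of the grey range and Pold3 left of it, and the dimmer probes of Orc4 and Cdc7 lie far from the brighter ones.

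Polymerase alpha-primase, which lays down the RNA primer and the first stretch of DNA, had subunits on both sides of 0. The catalytic subunits of both enzymes were above 0 and the accessory subunits below it at the 75th percentile scaling. Pola1, the polymerase, read 562 in WT against 882 in ESAM-KO, for a log2 ratio of 0.33, and Prim1, the primase, read 492 and 786, a ratio of 0.36. Pola2 read 134 and 125, a ratio of -0.42, and Prim2 read 279.97 and 242, a ratio of -0.53. The distance from Prim2 to Prim1 was 0.88 with a scanner error of 0.29, and all 4 were within 2-fold. Without scaling, Pola2 and Prim2 were still below 0, at -0.10 and -0.21.

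The polymerases that extend the strands held the other genes past 2-fold, in opposite directions and both in accessory subunits. Pole2, the second subunit of polymerase epsilon, which works mainly on the leading strand, read 132 in WT and 488 in ESAM-KO. Its log2 ratio was 1.57 ± 0.21 (scanner error), or 2.97-fold higher. The catalytic subunit, Pole, was within 2-fold at both of its probes, with -0.14 at the brighter and 0.27 at the dimmer, so that the subunits of this enzyme were 1.71 apart with a scanner error of 0.29. Pold3, an accessory subunit of polymerase delta, the lagging-strand enzyme, read 569 in WT and 324 in ESAM-KO. Its log2 ratio was -1.13 ± 0.20 (scanner error), or 2.19-fold lower. At the 75th percentile scaling it was the single member lower by more than 1.5-fold, whereas with median scaling Cdc7 at -0.67 and Prim2 at -0.66 were too. The catalytic subunit of polymerase delta, Pold1, was at -0.23 and Pold2 at 0.18, the latter 1.30 above Pold3. Pole2 stayed past 2-fold under each of the other scalings, background corrections and filters, between 1.23 and 1.89. Pold3 did not: its log2 ratio was -0.81 on unscaled intensities and -0.99 after normexp background correction with quantile normalization.

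Of the sliding clamp and the 5 subunits of its loader, 4 genes were above 0 and 2 below, or 3 and 3 with median scaling. Pcna, the ring that tethers polymerases to DNA and is widely used as a marker of S phase, read 4571 in WT against 8821 in ESAM-KO, for a log2 ratio of 0.63. Rfc1, the large subunit of the clamp loader, read 616 and 1319, a ratio of 0.78. Rfc4 read 257 and 585 at its brighter probe, a ratio of 0.86, and its other probe was at 0.75. The remaining loader subunits were near 0 or below, with Rfc2 at 0.00, Rfc3 at -0.03 and Rfc5 at -0.28. From Rfc5 to Rfc4 the distance was 1.14 with a scanner error of 0.29, although these proteins work in a single complex. None of the 6 genes was past 2-fold, but Rfc1 and Rfc4 were without scaling, the latter at 1.18.

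All 3 subunits of replication protein A, which coats single-stranded DNA at the fork, were above 0. Rpa1 read 163 in WT against 277 in ESAM-KO, for a log2 ratio of 0.45, and Rpa2 read 767 and 1240.5, a ratio of 0.38. Rpa3, the smallest subunit, read 1257 and 2917, a ratio of 0.90, which became 1.21 without scaling. The 3 stayed above 0 under every scaling tried, while the share of all measured genes below 0 ran from 28.4% without scaling to 61.5% with median scaling. The enzymes that finish the lagging strand were level between the arrays. Fen1, the flap endonuclease that trims primer remnants, read 2145 and 2606, a ratio of -0.04, and Lig1, the ligase that seals the fragments, read 6527 and 7646, a ratio of -0.09.

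At a lower threshold of 1.5-fold, 8 genes were higher in ESAM-KO, beside 13.5% of all measured genes, and 1 was lower, beside 16.2%, so that 9 of 43 were past it, or 20.9%, beside 29.7%. The 8 were Gmnn, Mcm10, Cdc45, Pole2, Pcna, Rfc1, Rfc4 and Rpa3, which act at loading, activation, polymerisation, the clamp and the single strand. At this scaling and by the brighter probe, 0 members differed by more than 3-fold, whereas Pole2 at 1.89 and Mcm10 at 1.68 did so without scaling. This lower threshold is closer to the noise, but the spread between probes of the same gene reaches past 2-fold as well. Of 2568 genes with exactly 2 probes measured on both arrays, the log2 ratios of the probes differed by a median of 0.42, and by more than 1 for 20.7%. The 5 members with such a pair differed by 0.12 for Rfc4, 0.27 for Orc3, 0.41 for Pole, 2.01 for Orc4 and 2.04 for Cdc7. Spots of a single probe agreed more closely, with a median SD of the log2 ratio of 0.11 over 206 probes that were printed at least 8 times, but each member probe was printed once. For the 37 members with a single probe, Mcm10, Pole2 and Pold3 among them, no second reading exists.

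Many replication genes carry binding sites for E2F, the transcription factors that switch on S phase genes when Rb is inactivated. RefSeq promoter windows of build GRCm38.p6, which run from 250 bases before to 50 bases after an annotated start, were matched by symbol for 35 of the 43 genes. The letters TTTCCCGC, TTTCGCGC, TTTGCCGC and TTTGGCGC, forms of the E2F motif, were searched on both strands, where a pair on opposite strands can overlap. At least 1 was found for 15 of the 35 genes, or 42.9%, beside 2.60% of all 27025 genes with a window and 4.48% of the 10108 that were also measured on both arrays. The following stretches of 30 bases, 5′ to 3′ on the strand of the gene with the motif in capitals, show the motif in the 2 genes past 2-fold that hold it, then in 3 of the genes nearest to 0, and in 2 licensing genes.
Pole2 (chr12:69228162-69228191, minus strand): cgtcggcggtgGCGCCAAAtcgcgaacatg
Pold3 (chr7:100121467-100121496, minus strand): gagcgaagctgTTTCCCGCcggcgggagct
Mcm3 (chr1:20820275-20820304, minus strand): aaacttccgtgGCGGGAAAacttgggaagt
Mcm6 (chr1:128359797-128359826, minus strand): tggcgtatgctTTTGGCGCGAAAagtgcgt
Rfc3 (chr5:151651200-151651229, minus strand): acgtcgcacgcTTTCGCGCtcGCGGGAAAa
Cdc6 (chr11:98908002-98908031, plus strand): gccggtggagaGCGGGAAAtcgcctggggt
Orc1 (chr4:108579416-108579445, plus strand): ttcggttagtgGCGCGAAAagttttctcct

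Pole2 and Pold3, which differed between the arrays in opposite directions, thus both hold these letters close to their start, as do Mcm3, Mcm6 and Rfc3, which were level between the arrays. The motif letters were not found in the window of Mcm10. Its 120 bases before the start are shown because it is the other gene past 2-fold, with the CCAAT box, the letters bound by NF-Y, in capitals.
Mcm10 (chr2:5012792-5012911, minus strand): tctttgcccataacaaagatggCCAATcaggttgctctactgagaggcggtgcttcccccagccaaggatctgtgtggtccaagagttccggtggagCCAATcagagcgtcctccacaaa

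The 15 genes with the E2F letters had a median log2 ratio of -0.04, with 9 below 0, and ran from -1.13 to 1.57. The 20 genes with a window but without the letters had a median of 0.32, with 6 below 0, and ran from -0.54 to 1.36. The CCAAT box was present for 21 of the 35 genes, or 60.0%, beside 41.1% of all genes with a window and 43.3% of those also measured on both arrays. The GC box GGGCGG was present for 27, or 77.1%, beside 38.2% and 63.4%. Each count is a description of letters in a window, and none was tested against the ratios.

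The E2F factors themselves, and the cyclin E system that acts with them, were followed in a list of 24 regulators of the G1/S transition, of which 23 were named on the array. Of these, 2 were higher and 1 was lower past 2-fold, or 13.6% of those with a ratio, near the 15.4% of all genes. The median log2 ratio of the 21 measured on both arrays was 0.09, or -0.04 with median scaling. Ccne1, which encodes cyclin E1, the partner of Cdk2 at the start of S phase, read 114 in WT and 423 in ESAM-KO. Its log2 ratio was 1.57 at this probe and 1.63 at the other, so that both probes were past 2-fold in the same direction, and the ratio of the brighter remained past 2-fold under every alternative, between 1.27 and 1.89. Cdc25a, the phosphatase that activates Cdk2, was just past 2-fold at 1.00, and was within it at 0.87 with median scaling and at 0.96 with normexp. Fbxo5, an inhibitor of the anaphase-promoting complex that protects geminin from destruction, was at -1.10, and at -0.78 without scaling. Rbl1, of the Rb family, was at -0.14 at its brighter probe. Its dimmer probe, which read 33.7 in WT and 291 in ESAM-KO, was at 2.79. With median scaling 1 gene of the list was higher past 2-fold, and with normexp 1 was higher and 0 were lower. With the probes of a gene averaged, 3 were higher and 1 was lower. Of all genes with a ratio, 16.1% were past 2-fold with median scaling, 5.11% with normexp and 14.6% with averaged probes. The E2F genes lay on both sides of 0. The activators E2f1, E2f2 and E2f3 were at -0.21, -0.61 and, at the brighter probe, 0.05. Of the repressors, E2f4 was at 0.19, E2f6 at -0.33 and E2f8 at 0.42, and E2f7 was at 0.67 at its brighter probe and -0.80 at its dimmer. E2f5 was above background on the ESAM-KO array alone.

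Of 28 other factors of the fork and the origin, 27 were measured on both arrays. Past 2-fold were 3 higher and 1 lower, or 14.8%, near the 12.6% of all genes measured on both arrays. The list had a median log2 ratio of 0.11, or -0.02 with median scaling. The counts were 6 higher and 0 lower without scaling, and 1 higher and 1 lower with normexp. Of all genes with a ratio, 17.8% and 5.11% were past 2-fold under these 2 settings. Clspn, which encodes claspin, a mediator of the replication checkpoint, was at 1.66 from the dim readings of 25.7 in WT and 101 in ESAM-KO, and at 0.64 with normexp. Mtbp, which works with Treslin in the firing of origins, read 1160 and 3412, a ratio of 1.24 that remained past 2-fold under every alternative. Recql4, a helicase also needed at initiation, was at 1.07 and 0.81 at its 2 probes, and with median scaling the brighter was at 0.94. Rnaseh2a, the catalytic subunit of an enzyme that removes RNA from DNA, was at -1.05 at its brightest probe, but its other 3 probes lay between -0.77 and 0.64. Donson was at 0.77 at its brighter probe and at 1.12, past 2-fold, at its dimmer.

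The list of 12 genes of replication-coupled chromatin assembly had 0 past 2-fold, beside 12.6% of all genes measured on both arrays. Its median was -0.06, or 0.26 without scaling. The 22 mitotic genes also had 0 past 2-fold among the 21 measured, with a median of 0.08, or -0.05 with median scaling. These counts use the brightest probe of each gene. A dimmer probe of Ccnb1 was at 1.15 and a dimmer probe of Mad2l1 at 1.04, both past 2-fold. Without scaling, 4 mitotic genes (Ccnb1, Bub1b, Cenpa and Kif11) were higher past 2-fold by the brightest probe. Of all genes with a ratio, 17.8% were past 2-fold in either direction without scaling. With median scaling Foxm1 was lower, at -1.05. In the list of nucleotide supply, all 14 genes were above 0, beside 48.5% of all measured genes, with a median of 0.40. With median scaling 13 were above 0, where 61.5% of all measured genes were below it. Tyms, which encodes thymidylate synthase, the enzyme inhibited by the product of 5-FU, was the 1 gene among them past 2-fold. That is 7.14% of the list, beside 12.6% of all genes measured on both arrays. Tyms was at 1.40 from readings of 46.8 and 154, and was within 2-fold at 0.81 with normexp. Without scaling 4 genes were past 2-fold, with Rrm2, Rrm2b and Dctd beside Tyms. These counts also use the brightest probe. At their dimmer probes, Rrm2b was past 2-fold at 1.05 and Umps was below 0, at -0.53. Rrm2, the small subunit of ribonucleotide reductase, was at 0.73.

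**Figure D4:**
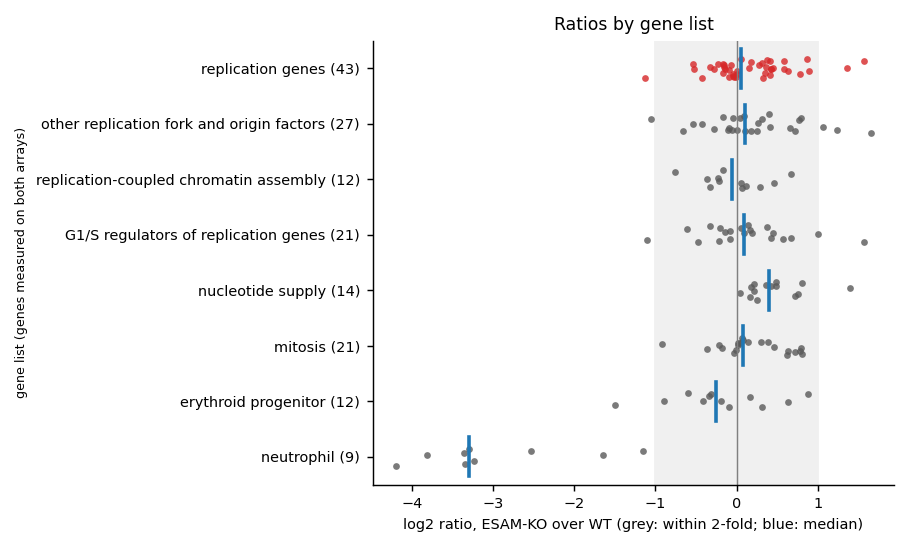
Log2 ratio of ESAM-KO over WT (horizontal axis) for each gene measured on both arrays, by list, with a blue bar for the median of the list and grey for the range within 2-fold. The medians of the replication genes (red, 0.05), the other cell cycle lists and the erythroid progenitor markers (-0.25) lie within the grey range, whereas all 9 neutrophil markers lie left of it.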

How the data were processed

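Pre CFU-E from WT and ESAM-KO mice were measured on 1 array each. The authors deposited the intensity of each spot from Agilent Feature Extraction 10.10.1.1 (version from the submitters' processing notes), background-subtracted within the array and not scaled between arrays. The series table held the same intensity, within 0.497%. Control spots and 254 outlier spots were left out, and no spot was saturated. The log2 intensity minus the 75th percentile of the array was averaged over the spots of a probe. A probe counted where more than 50% of its spots were well above background, and a gene was read from its brightest probe. Where 1 array was dim, the ratio was a bound against the lowest signal well above background, which 0 members needed. Accessions without versions named 27235 of 55680 probes through RefSeq (GRCm38.p6, names only). Genes were compared by the 2-fold criterion of the study, and no test was possible. The named genes are all members, Esam, and of each other list the genes past 2-fold, with the 2 highest and the 2 lowest where more than 4 were. Others in the text (the E2F genes, Rbl1, Donson, Mad2l1, Umps, Rrm2, the mitotic and nucleotide genes past 2-fold under another scaling, and the markers) were chosen after their values were seen. The members and lists were chosen with earlier results of these data known. The alternatives are given in the closing section. Python 3.11.15, pandas 2.3.3, numpy 2.4.6, R 4.3.3 and limma 3.58.1 were used, and the counting was tested on simulated data. Precision is limited by there being 1 array per genotype.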

Additional observations from a re-analysis of the deposited data

How the results depend on the processing

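Of the 43 members, 3 were past 2-fold (2 higher, 1 lower), beside 15.4% of all genes with a ratio. Without scaling 5 were (5 higher, 0 lower), beside 17.8%. At 1.5-fold there were 9 (8 higher), beside 33.2%, and at 3-fold 0 (0 higher, 0 lower), beside 5.81%. Normexp background correction with quantile normalization left 0 lower. Read from the dimmer probe where a member had 2, an alternative chosen after seeing the data, the members past 2-fold numbered 5, with 4 higher. No share of all genes read in this way is given, so that this count has nothing to stand beside. Dim genes were past 2-fold more often, with 17.9% in the dimmest quartile and 2.63% in the brightest. The median log2 ratio, 0.05, was 0.37 without scaling and -0.076 with median scaling. It was 0.18 when probes of a gene were averaged and 0.27 with the dimmer probe. The 19 members below 0 became 5 without scaling, beside 28.4% of all measured genes. The array-wide scalings shift all genes alike, and the dimmer probe added Orc4 and Cdc7 to the members past 2-fold. Over all named genes with a ratio, 2179 were past 2-fold, and 2533 without scaling. They numbered 722 with normexp (5.11%), 4108 with no filter on dim probes (19.9%), 4694 at 1.5-fold and 821 at 3-fold. Of 430 member ratios under the alternatives, 382 moved by less than the scanner error and 48 by more, and 0 of those past 2-fold changed sign. These counts were largely set by the choice of alternatives and do not measure how stable the ratios are. Changing the filters on dim probes and outlier spots left every member ratio as it was. Leaving out the scaling moved every ratio by 0.32, which is more than the scanner error of any member. Without scaling, the genes higher past 2-fold were 6 fork and origin factors (3 before), 4 nucleotide genes (1), 4 mitotic genes (0) and 2 clamp and loader genes (0). No paired analysis was possible because there was 1 array of each genotype.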
